A study of Mus musculus with 12 samples.

Results

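The pancreas of the E14.5 mouse embryo was compared between β-catenin KO and wildtype on 6 of the 12 arrays of the series, 4 KO and 2 wildtype, each array made from a single embryonic pancreas. The 6 were chosen by the genotype and day in their array names, without regard to any measured value. The KO embryos carried Pdx1-cre and were homozygous for a floxed β-catenin allele (Pdx1Cre/+; beta-catenin flox/flox), and both genotypes came from intercrosses of Pdx1Cre/+; beta-catenin flox/+ mice, so that all embryos share this mixed parentage. Whether the wildtype embryos carried Cre or 1 floxed allele is not given in the sources used here, nor is their strain. DNA inherited with the floxed allele can still differ between the genotypes, and its part in the results was not tested. Cre was driven by the Pdx1 promoter, which is active in the pancreatic epithelium and not in its mesenchyme, vessels, nerves or blood cells, and the study considers its action in the KO likely to be mosaic. RNA of the whole organ was measured, so fewer cells of a type and less RNA per cell cannot be told apart in any value below. The arrays are named KO_540C, KO_540G, KO_615A, KO_615B, WT_522B and WT_522C, and what the number in a name marks is not given in the sources used here.

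β-catenin joins cadherins to the cytoskeleton at epithelial junctions and carries the canonical Wnt signal to Tcf/Lef transcription factors in the nucleus. In the mouse pancreas this day falls in the secondary transition, when multipotent tips of the branching epithelium become acinar cells under Ptf1a, Rbpjl and Nr5a2 while endocrine cells leave the trunks. Acinar cells then fill with digestive enzymes, and beta cells with insulin.

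Every value is the linear ratio the authors deposited, in which 1 stands for the mean of both wildtype embryos. A ratio holds no abundance, and whether a marker of the pancreas was present or absent could not be read from it. Differences are given as log2 fold changes, KO minus wildtype, with the standard error from limma, a linear model with moderated variances fitted to all 12 arrays, and with p adjusted over all 45037 probe sets. A probe set is the group of oligonucleotides on the array that measures 1 transcript end, and a gene can have several. "Above" and "below" mean that all 4 KO arrays lay beyond both wildtype arrays. Of all genes, on 1 probe set per gene, 8.79% lay above and 9.42% below. Each count of list members below is to be read beside these shares.

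The targeted gene gave no common direction. On the 3 probe sets of Ctnnb1, which encodes β-catenin, the ratios in KO_540C, KO_540G, KO_615A and KO_615B were 0.907, 0.913, 0.956 and 0.845 on the first, 1.11, 1.29, 1.31 and 1.14 on the second, and 0.955, 0.754, 0.953 and 0.701 on the third. All 4 KO lay below both wildtype on the first and the third probe sets and above both on the second. The place of these probe sets in the transcript is not given in the sources used here, so they do not check the KO label.

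The 4 KO arrays were not equally far from wildtype. The median absolute log2 difference between 2 arrays, in which the wildtype mean cancels, was 0.11 between the 2 wildtype arrays, 0.11 between KO_615A and either wildtype array, 0.13 to 0.16 for KO_540C and KO_615B against wildtype, and 0.23 to 0.25 for KO_540G. Arrays that share a number were not closer to each other: KO_540C and KO_540G differed by 0.28 and KO_615A and KO_615B by 0.14, while KO_540C and KO_615B differed by 0.13. KO_540G had 1292 probe sets under 0.5 and KO_615A had 64, against 119 in KO_540C and 337 in KO_615B. In 150 probe sets KO_540G alone was under 0.5 while the other 3 KO lay between 0.8 and the reciprocal of 0.8, a pattern with 0 probe sets in KO_540C, 0 in KO_615A and 1 in KO_615B. The sex-linked genes differed between arrays and not between genotypes. Xist, the RNA of the inactive X chromosome, was at 0.0563 and 0.0960 in KO_540C and KO_540G and at 0.0761 in WT_522C, against 1.04 and 2.33 in KO_615A and KO_615B and 1.92 in WT_522B. The Y-linked gene Eif2s3y ran the other way, at 2.08 and 0.749 in KO_540C and KO_540G and at 1.95 in WT_522C, against 0.0622, 0.0621 and 0.0525 in the other three. The Xist level and the number in the name therefore cannot be told apart among the KO, while each wildtype array is of a different kind.

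At a limma adjusted p under 0.05, 1 probe set was higher in the KO and 4 were lower, which is 0.00222% and 0.00888% of those tested. Of those that fell, the largest in size was Lztfl1, a leucine zipper protein that regulates traffic in cilia, at 0.150, 0.191, 0.164 and 0.167 in KO_540C, KO_540G, KO_615A and KO_615B against 1.05 and 0.948 in the wildtype (log2 fold change -2.58, SE 0.16, limma adjusted p = 0.000113). Ap1s3, a subunit of a clathrin adaptor that sorts cargo into vesicles, was at 0.298, 0.139, 0.198 and 0.124 against 1.14 and 0.861 (log2 fold change -2.47, SE 0.31, limma adjusted p = 0.0497). Lars2, which loads leucine onto tRNA in mitochondria, was at 0.374, 0.357, 0.418 and 0.339 against 1.10 and 0.898 (log2 fold change -1.42, SE 0.12, limma adjusted p = 0.00143). On these 3 probe sets the 4 KO values stood together, far below both wildtype values, and KO_615A was as low as the others. Lztfl1 and Lars2 also had probe sets on which the KO overlapped the wildtype, as given below. 2010315B03Rik, a gene without a described role, was at 0.485, 0.476, 0.479 and 0.433 against 1.13 and 0.873. On these 4 lower probe sets an effect of DNA inherited with the floxed allele cannot be told apart from that of the KO. How near these genes lie to Ctnnb1 was not examined. The probe set that rose carries no gene name here and was at 6.67, 13.5, 16.04 and 9.10 against 0.931 and 1.07 (log2 fold change 3.42, SE 0.44, limma adjusted p = 0.0497). Its KO mean ratio was 11.3. That value rounds to the largest fold change that the study gives for the elastase of Cela3b at this day. The KO arrays also stood in the same order as on the highest Cela3b probe set described below. It is an _x_at probe set, which can match several transcripts, and its identity was not tested. The limma adjusted p of Lztfl1 stayed under 0.05 in 20 of 22 alternative settings, that of Lars2 in 18, that of 2010315B03Rik in 15, that of Ap1s3 in 7 and that of the unnamed probe set in 8 of 21.

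**Figure D1:**
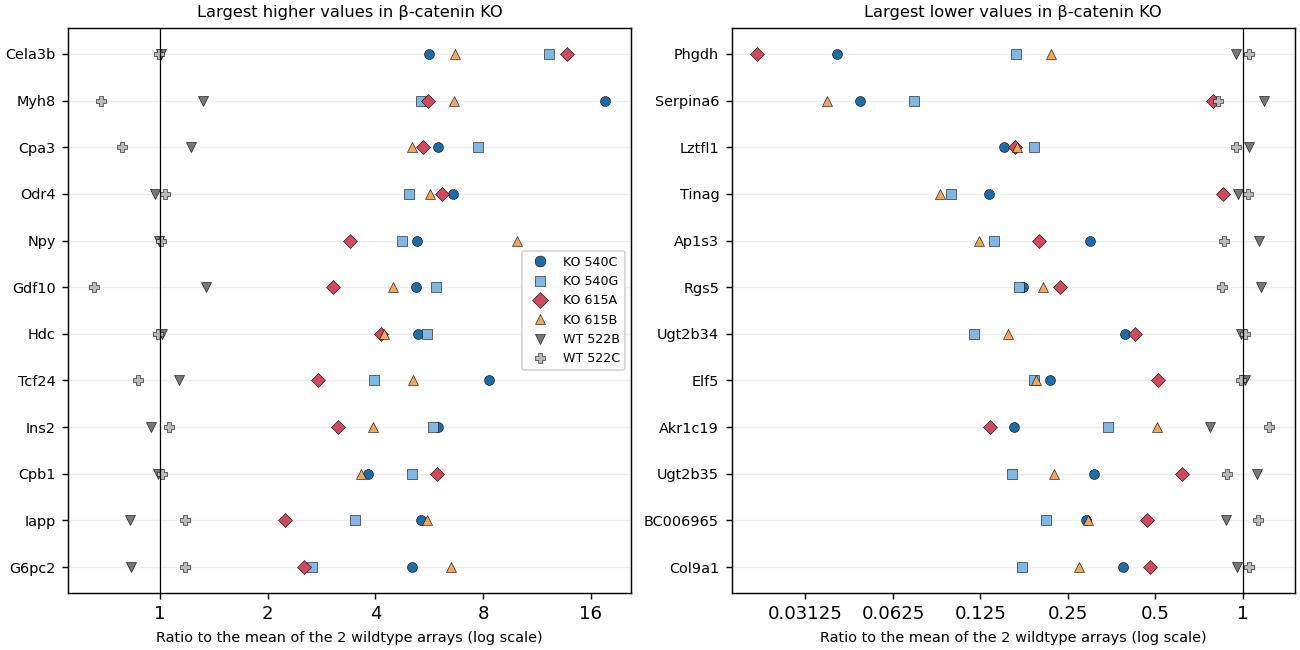
Ratio to the wildtype mean on a log axis for the 12 named genes with the largest higher and the 12 with the largest lower mean log2 change among probe sets on which all 4 KO lay beyond both wildtype, 1 symbol per array. Lztfl1 lies between 0.150 and 0.191 in all 4 KO, while Serpina6 and Tinag are low in 3 KO and at 0.787 and 0.854 in KO_615A.

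Past 2-fold, with all 4 KO above both wildtype, lay 101 probe sets (0.224% of those tested), and 86 lay past 2-fold with all 4 KO below (0.191%). The values that follow describe the far ends of these and, except for Lztfl1 and Ap1s3, did not pass limma's limit. An acinar protease headed the higher values of named genes. Cela3b, a pancreatic elastase, was at 5.66, 12.2, 13.7 and 6.69 in KO_540C, KO_540G, KO_615A and KO_615B on its highest probe set, against 1.005 and 0.995 in the wildtype (log2 fold change 3.16, SE 0.50, limma adjusted p = 0.120). Cpb1, the pancreatic carboxypeptidase B, was at 3.81, 5.06, 5.93 and 3.64 against 0.987 and 1.01 (log2 fold change 2.18, SE 0.48, limma adjusted p = 0.406). In both genes KO_615A was the highest of the 4 KO, and all 4 KO lay far above both wildtype arrays.

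Islet genes and a neuropeptide stood beside them. Ins2, which encodes insulin, was at 5.996, 5.80, 3.14 and 3.93 against 0.943 and 1.06 (log2 fold change 2.19, SE 0.34, limma adjusted p = 0.111). Its KO mean ratio was 4.72. That value rounds to the fold change that the study gives for Ins1. The probe set of Ins2 is an _x_at probe set, which can match several transcripts, and whether it also measures Ins1 was not tested. Iapp, the amylin that is secreted with insulin, was at 5.37, 3.50, 2.23 and 5.58 against 0.825 and 1.18. G6pc2, the glucose-6-phosphatase of beta cells, was at 5.08, 2.67, 2.53 and 6.51 against 0.827 and 1.17. KO_615A was the lowest of the 4 KO in each of these genes, the reverse of its place in Cela3b and Cpb1. Npy, a neuropeptide of nerves and of fetal islets, was at 5.24, 4.76, 3.39 and 9.95 against 0.996 and 1.004.

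A mast cell pair was also high. Cpa3, the carboxypeptidase of mast cell granules, was at 5.97, 7.75, 5.42 and 5.05 against 1.22 and 0.782 (log2 fold change 2.61, SE 0.40, limma adjusted p = 0.102), and Hdc, which makes histamine, was at 5.25, 5.56, 4.14 and 4.23 against 1.01 and 0.989 on 1 of its 2 probe sets. These 2 genes had among the narrowest ranges across the KO of the 12 named with the largest higher values. Myh8, a perinatal myosin heavy chain of skeletal muscle, was at 17.6, 5.35, 5.63 and 6.65 against 1.32 and 0.683, so that its mean rests in large part on KO_540C. Gdf10, a growth factor of the BMP family, was at 5.21, 5.91, 3.05 and 4.48 against 1.35 and 0.653, and Tcf24, a basic helix-loop-helix factor, at 8.29, 3.97, 2.76 and 5.08 against 1.13 and 0.867. Odr4, a gene for a membrane protein, was at 6.58, 4.95, 6.12 and 5.68 against 0.970 and 1.03 on 1 of its 2 probe sets, and the KO overlapped the wildtype on the other.

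The lower end held a metabolic enzyme and several genes in which KO_615A differed from the rest. Phgdh, which starts the synthesis of serine, was at 0.0401, 0.165, 0.0214 and 0.219 against 0.948 and 1.05 on its lowest probe set (log2 fold change -3.74, SE 0.82, limma adjusted p = 0.405). Rgs5, a regulator of G protein signaling in pericytes, was at 0.175, 0.169, 0.235 and 0.206 against 1.16 and 0.845 (log2 fold change -2.34, SE 0.43, limma adjusted p = 0.227), with all 4 KO alike on that probe set. This was 1 of its 4 probe sets: on 2 others the KO overlapped the wildtype, and on 1 all 4 KO lay above both wildtype (log2 fold change 0.31, SE 0.16). Elf5, an epithelial ETS factor, was at 0.217, 0.192, 0.509 and 0.194 against 1.02 and 0.983 on 1 probe set and had a log2 fold change of -0.15 on the other. Serpina6, the corticosteroid-binding globulin, was at 0.0482, 0.0741, 0.787 and 0.0371 against 1.18 and 0.821, and Tinag, a basement membrane antigen of tubular epithelium, at 0.134, 0.0990, 0.854 and 0.0910 against 0.961 and 1.04. For the latter 2 genes KO_615A was just under the lower wildtype array while the other 3 KO were far lower. The glucuronosyltransferase Ugt2b34 lay at 0.119 to 0.426 across the KO and its relative Ugt2b35 at 0.160 to 0.617. Akr1c19, an aldo-keto reductase, was at 0.135 to 0.505, and the cartilage collagen gene Col9a1 at 0.173 to 0.480 on 1 probe set, with a log2 fold change of -0.06 on the other. BC006965 was at 0.211 to 0.469 on 1 probe set, while all 4 KO lay above both wildtype on another, at 1.24 to 1.52.

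By the smallest p rather than the largest change, the genes named were those with small spread. Ier5, an immediate early response gene, was at 2.44, 1.78, 2.30 and 2.18 against 0.941 and 1.06 (log2 fold change 1.11, SE 0.15, limma adjusted p = 0.0773), and Slc16a14, a monocarboxylate transporter family member, at 1.71, 1.96, 1.59 and 1.93 against 0.950 and 1.05. Gip, the incretin hormone, was at 2.56, 2.85, 2.07 and 4.12 against 0.854 and 1.15. Itga9, an integrin, Prrg3, a membrane protein with a Gla domain, and Stx6, a syntaxin of the Golgi, had KO mean ratios of 1.74, 1.69 and 1.44. Among the lower values Greb1, an estrogen-induced gene, was at 0.562, 0.468, 0.598 and 0.431 against 0.999 and 1.001 (log2 fold change -0.97, SE 0.13, limma adjusted p = 0.0773). Taf1d, a subunit of the RNA polymerase I selectivity factor, had a KO mean ratio of 0.479, Farsb, a subunit of the phenylalanyl-tRNA synthetase, 0.538, L1td1, an RNA-binding protein of embryonic cells, 0.545, 6030498E09Rik 0.563 and Nav1, a navigator protein of neurons, 0.606. All 4 KO of each of these genes lay beyond both wildtype arrays on the probe set that the rule named. Ier5, Itga9, Stx6, Greb1, Taf1d, Farsb and Nav1 each had at least 1 other probe set on which the KO overlapped the wildtype, and on 1 of the 4 probe sets of Nav1 all 4 KO lay above.

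The probe sets of 1 gene often disagreed. Of 18193 genes with a probe set of their own, 9010 had more than 1, and in 4260 of these (47.3%) all probe sets had the same sign of log2 fold change. Among the 4695 genes with exactly 2 probe sets the share was 61.1%, and the median difference between the 2 was 0.14 in log2. The genes past 2-fold with all KO above numbered 76, of which 43 had other probe sets. In 37 of the 43 all other probe sets were also higher, in 25 another probe set also lay above both wildtype, and in 11 another was also past 2-fold. Of 70 genes past 2-fold with all KO below, 54 had other probe sets. In 33 of the 54 all others were also lower, in 33 another lay below both wildtype, and in 5 another was also past 2-fold. In 16 genes of the higher and 17 of the lower group, every other probe set lay within 0.3 of 0 in log2. One probe set chose each of these genes, so only the others are free to disagree.

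The genes with 2 or more probe sets past 2-fold were named after their values had been seen. On the higher side they were Cela3b, Cxcl13, Fmod, Itih5, Lgals1, Lox, Malat1, Mettl23, Nefl, Nfix and Vegfd, and on the lower side Akap9, Hmga2, Niban1, Phgdh and Ugt2b34. Several of the first group encode stromal or matrix proteins. Fmod, a collagen-binding proteoglycan, was above both wildtype on all 6 of its probe sets, with log2 fold changes of 0.54 to 1.81. Itih5, a hyaluronan-binding protein, was above on all 3, Lox, which crosslinks collagen, on 2 of 3, and Cxcl13, a chemokine of B cell follicles made by stroma, on both of its probe sets. On the lower side Hmga2, a chromatin protein of growing fetal tissue, was below both wildtype on 3 of its 4 probe sets, with log2 fold changes of -1.25, -1.23 and -1.17 and -0.06 on the remaining one. Its lowest probe set was at 0.511, 0.287, 0.650 and 0.311 in KO_540C, KO_540G, KO_615A and KO_615B against 0.844 and 1.16. Niban1, a stress-response gene, was past 2-fold on both of its probe sets, at -1.63 and -1.60.

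Other genes rested on 1 probe set. Hdc had a log2 fold change of 2.25 on 1 probe set and 0.10 on the other, and Iapp 1.99 on 1 and 0.12 to 0.41 on the other 3. Lars2 had -1.42 on 1 probe set and 0.06 and 0.27 on the other 2. Mycn, the N-myc gene, had -0.99 on 1 and 0.00 and 0.12 on the other 2. Lztfl1 had -2.58 on 1 of 5 probe sets, -0.54 and -0.44 on 2 that also lay below both wildtype, and 0.00 and 0.12 on the last 2. Phgdh ran from -3.74 to -0.40, with all 4 KO below both wildtype on each of its 4 probe sets. Cela3b was high on 3 probe sets, at 3.16, 2.53 and 2.13, and at 0.28 on the fourth. The unnamed probe set that passed limma's limit is not counted among these, and whether it measures Cela3b was not tested.

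**Figure D2:**
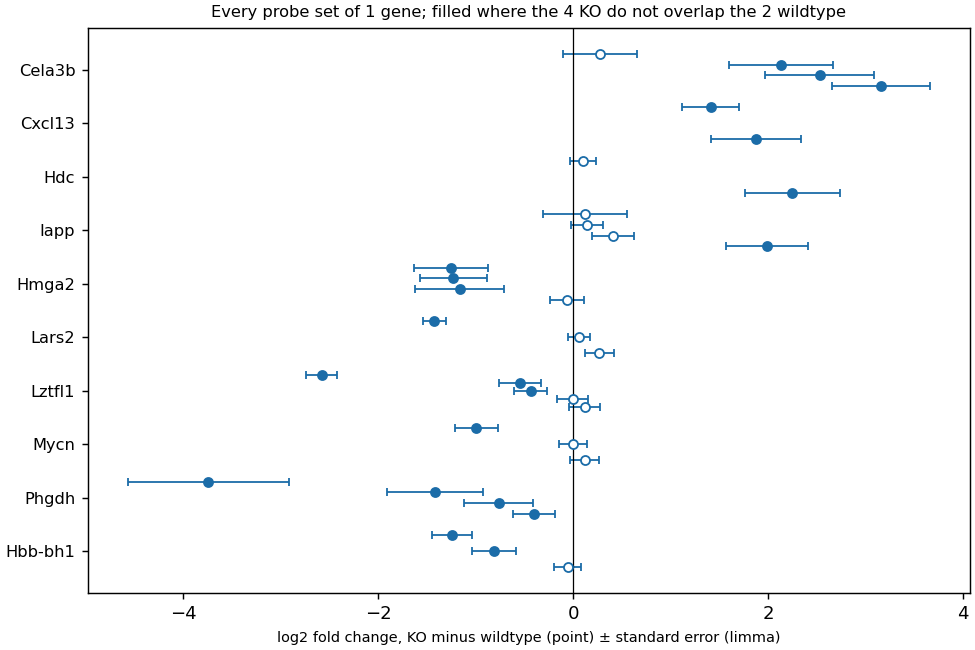
Log2 fold change of KO against wildtype with its limma standard error for every probe set of 10 genes, filled where all 4 KO lay beyond both wildtype. All 4 probe sets of Phgdh are filled, against 1 of 4 for Iapp and 1 of 3 for Lars2 and Mycn.

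Of the 24 measured enzymes and granule proteins of the acinar cell, 5 lay above both wildtype in all 4 KO and 3 below. Another 7 lay above both wildtype in KO_615A and below both in the other 3 KO, and the other 9 held neither pattern. Of 9 measured pancreatic serine proteases, 3 lay above both wildtype in all 4 KO and 1 below, on 1 probe set per gene chosen by its name alone, where 8.79% of all genes lay above and 9.42% below by the same choice. Cela2a, an elastase, was at 3.09, 1.88, 2.91 and 1.92 against 0.821 and 1.18 (log2 fold change 1.28, SE 0.70, limma adjusted p = 0.791), Ctrl, a chymotrypsin-like protease, at 1.04 to 1.19 and Klk1, a kallikrein, at 1.05 to 1.60, while Ctrc, a chymotrypsin, was at 0.841 to 0.937. Cela1, another elastase, went the other way, at 0.319, 0.369, 1.10 and 0.139 against 0.970 and 1.03. Of 15 other acinar enzymes and granule proteins 2 lay above, Cpb1 and the ribonuclease Rnase1, the latter at 2.15, 1.61, 2.71 and 2.38 against 1.02 and 0.983. The 2 below were the phospholipase Pla2g1b, at 0.879 to 0.948, and Reg1, a regenerating islet-derived protein, at 0.675, 0.806, 0.769 and 0.414.

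Besides Cela1, 6 members followed 1 pattern, with KO_615A over both wildtype and the other 3 KO below both. Pnliprp1, a lipase relative, was at 0.383, 0.730, 1.52 and 0.234 in KO_540C, KO_540G, KO_615A and KO_615B. Cel, the bile salt-activated lipase, was at 0.495, 0.426, 1.34 and 0.331, and Cpa1, a carboxypeptidase that also marks multipotent tips, at 0.716, 0.597, 1.58 and 0.332. Pnliprp2, a second lipase relative, was at 0.431, 0.434, 1.48 and 0.361. These 4 genes of fat and protein digestion had the same order of arrays at its top, KO_615A over the wildtype and the others. Spink1, the trypsin inhibitor of acinar cells, was at 0.463, 0.674, 1.33 and 0.236, and Amy1, an amylase, at 0.810, 0.865, 1.41 and 0.728. The list as a whole had a median log2 ratio of 0.42 in KO_615A, -0.19 in KO_540C, -0.08 in KO_540G and -0.75 in KO_615B. Its median log2 fold change of -0.15 lay near the medians of KO_540C and KO_540G and far from those of KO_615A and KO_615B.

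Of the 7 measured transcription factors of acinar cells, 3 held the same pattern. Ptf1a, which specifies the acinar fate, was at 0.263, 0.269, 1.48 and 0.149, and Nr5a2, a nuclear receptor of the same program, at 0.314, 0.347, 1.83 and 0.426 on 1 probe set and at 0.309, 0.207, 1.02 and 0.301 on another. Gata4, of early pancreatic tips, was at 0.741, 0.841, 1.108 and 0.708. Rbpjl, the partner of Ptf1a in mature acinar cells, was at 0.756, 0.849, 0.805 and 0.654 against 1.02 and 0.980, with all 4 KO below both wildtype (log2 fold change -0.39, SE 0.20, limma adjusted p = 0.759). Bhlha15, Gata6 and Xbp1 were at log2 fold changes of -0.03, 0.16 and -0.29, and their KO overlapped the wildtype. Of the 7 factors 6 had a negative log2 fold change, and 0 passed limma's limit. The median of the list was -0.40 in KO_540C, -0.25 in KO_540G and -0.50 in KO_615B and 0.15 in KO_615A. Without KO_615A its median log2 fold change was -0.40, against -0.29 with it and 0.01 over all genes.

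**Figure D3:**
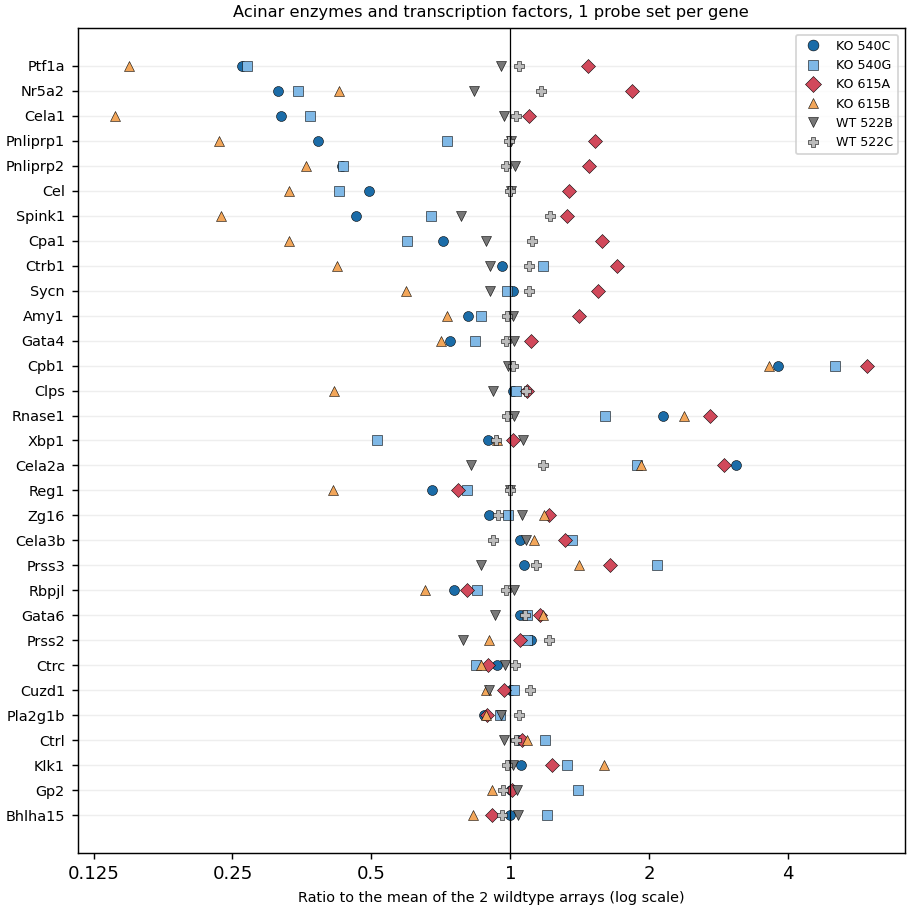
Ratio to the wildtype mean on a log axis for the 31 measured acinar enzymes and transcription factors, 1 probe set per gene and 1 symbol per array, ordered by how far KO_615A lies over the other 3 KO. Ptf1a, Nr5a2 and Cela1 head the order, and Cpb1, Rnase1 and Cela2a are high in all 4 KO.

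The bases before the start sites of 4 of these genes are shown because 2 were higher in all 4 KO (Cela3b and Cpb1) and 2 followed Ptf1a across the arrays (Cela1 and Cpa1). The Ptf1a complex is known to bind an E-box, here searched as CACCTG, beside a box searched as TTTCCCA. Each sequence is the 250 bases before the RefSeq start in assembly GRCm38.p6, read 5′ to 3′ on the strand of the gene, in lower case with matches to either motif on either strand in capitals. They are chr4:137430521-137430770 (minus strand) for Cela3b, chr3:20275734-20275983 (minus strand) for Cpb1, chr15:100687921-100688170 (minus strand) for Cela1 and chr6:30638968-30639217 (plus strand) for Cpa1.
Cela3b: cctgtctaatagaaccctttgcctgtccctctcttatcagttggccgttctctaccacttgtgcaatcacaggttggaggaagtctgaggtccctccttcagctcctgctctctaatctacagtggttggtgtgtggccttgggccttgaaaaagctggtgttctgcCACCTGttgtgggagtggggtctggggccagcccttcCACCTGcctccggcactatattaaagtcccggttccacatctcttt
Cpb1: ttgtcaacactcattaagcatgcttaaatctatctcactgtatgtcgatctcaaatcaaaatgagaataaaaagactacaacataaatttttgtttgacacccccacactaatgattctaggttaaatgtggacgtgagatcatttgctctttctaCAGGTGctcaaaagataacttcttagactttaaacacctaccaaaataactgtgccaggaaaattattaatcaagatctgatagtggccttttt
Cela1: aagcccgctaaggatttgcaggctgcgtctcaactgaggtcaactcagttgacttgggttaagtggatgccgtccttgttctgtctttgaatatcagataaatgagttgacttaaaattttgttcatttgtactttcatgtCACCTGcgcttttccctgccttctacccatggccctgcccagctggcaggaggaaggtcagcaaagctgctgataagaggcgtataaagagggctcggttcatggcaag
Cpa1: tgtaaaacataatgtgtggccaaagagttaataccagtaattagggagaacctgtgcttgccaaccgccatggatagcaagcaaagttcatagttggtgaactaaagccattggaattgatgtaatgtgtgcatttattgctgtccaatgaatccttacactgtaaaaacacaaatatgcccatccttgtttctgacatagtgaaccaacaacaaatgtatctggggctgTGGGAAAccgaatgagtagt
The E-box letters occur 2 times before Cela3b and 1 time before Cpb1 and Cela1, and the TTTCCCA letters occur 1 time before Cpa1 and in none of the other 3.  Of 32851 such windows in the table, 17.2% hold the E-box letters, 6.82% the other box and 1.17% both, and of the 26 acinar enzyme genes with a window 14, 7 and 4 do. These letters separate the 2 pairs of genes in no way, since Cela1 holds the same E-box letters as Cpb1. A match of letters is not evidence of binding.

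The pattern of KO_615A was not limited to acinar genes. In 35 probe sets KO_615A lay between 0.8 and its reciprocal while the other 3 KO were all under 0.5, against 2 such probe sets for KO_540C, 1 for KO_540G and 0 for KO_615B. Between 0.9 and its reciprocal the count for KO_615A was 25, and after quantile normalization 24. These limits were chosen after the values had been seen. The 35 cover 30 named genes. Cckar, the cholecystokinin receptor of acinar cells, was at 0.163, 0.109, 1.05 and 0.111, and Aldh1b1, an aldehyde dehydrogenase of pancreatic progenitors, at 0.180, 0.116, 1.05 and 0.131. Serpini2, a pancreatic serpin, was at 0.202, 0.233, 1.18 and 0.125, and Vtn, vitronectin, at 0.256, 0.256, 0.889 and 0.192. These genes stood under 0.5 of the wildtype level in 3 KO and near it in KO_615A. Bmp7, a BMP ligand, was at 0.398, 0.424, 1.09 and 0.444, and Dusp9, a phosphatase of MAP kinases, was in the set on 2 probe sets, as was Shmt1, the cytosolic serine hydroxymethyltransferase.

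Genes of epithelial cells took part in this pattern. Epcam, a surface protein of epithelia, was at 0.430, 0.232, 0.889 and 0.265 against 0.846 and 1.15 on 1 probe set and at 0.929 to 1.20 on the other. Ocln, a tight junction protein, was at 0.449, 0.476, 1.07 and 0.465, Esrp1, an epithelial splicing factor, at 0.492, 0.293, 1.05 and 0.478, and Ehf, an epithelial ETS factor, at 0.469, 0.309, 1.06 and 0.3004. Cdh1, which encodes the E-cadherin that binds β-catenin, was at 0.726, 0.367, 1.14 and 0.631. A list of 26 epithelial junction and keratin genes, written after single arrays had been seen, had 25 measured members, of which 21 had a negative log2 fold change and 7 lay below both wildtype in all 4 KO. Its median log2 ratio was -0.45, -0.79, 0.07 and -0.58 in KO_540C, KO_540G, KO_615A and KO_615B, and -0.04 and 0.04 in the wildtype. Of the 4 with a positive log2 fold change Krt19, a keratin of ducts, had the largest, at 2.07, 1.12, 1.111 and 2.42. The difference between the arrays in acinar genes stood beside this one in genes of all epithelium, and its part in the result was not tested.

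Duct and progenitor genes were spread in the same way. Of 13 measured duct genes 0 lay above and 1 below both wildtype, Muc1, an apical mucin, at 0.544, 0.530, 0.840 and 0.489 against 0.962 and 1.04 (log2 fold change -0.77, SE 0.34). Of 11 transcription factors of progenitors and endoderm, 2 lay below. Hhex, a homeobox factor of the ventral foregut, was at 0.501, 0.406, 0.772 and 0.421 (log2 fold change -0.98, SE 0.26), and Sox9, of progenitors and ducts, at 0.675, 0.494, 0.818 and 0.673 on 1 of 3 probe sets (log2 fold change -0.61, SE 0.17). Both were closest to wildtype in KO_615A, yet under both wildtype values there. Pdx1, whose promoter drives the Cre, was at 1.02, 0.966, 1.55 and 1.54 on 1 probe set and at 0.908, 0.560, 1.04 and 0.978 on the other, and the KO overlapped the wildtype on both. The limma adjusted p of Muc1, Hhex and Sox9 was over 0.05.

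Most of the hormone genes were at higher values in the KO. Of 9 measured islet and gut hormones 6 lay above both wildtype in all 4 KO and 0 below: Ins2, Iapp, Gip, Npy, Gcg and Sst. Of all genes 8.79% lay above. The list's median log2 fold change was 0.71, against 0.01 over all genes, with 1.05 from KO_540C and KO_540G alone and 0.47 from KO_615A and KO_615B alone. Gcg, the glucagon gene of alpha cells, was at 1.63, 1.90, 1.39 and 1.34 against 0.826 and 1.17 (log2 fold change 0.65, SE 0.18, limma adjusted p = 0.521), and Sst, the somatostatin gene of delta cells, at 1.29, 1.36, 1.31 and 1.23 against 1.08 and 0.919. Pyy, a peptide of early endocrine cells, was at 2.04, 2.02, 1.02 and 1.60 against 0.823 and 1.18, so that KO_615A lay within the wildtype range. Ghrl, ghrelin, was at 0.855 to 1.09 and Ppy, pancreatic polypeptide, at 0.848 to 1.26, both overlapping the wildtype.

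Genes of the secretory granule were on the same side as the hormones. All 13 measured genes of islet secretion and glucose sensing had a positive log2 fold change, and 6 lay above both wildtype, against 8.79% of all genes. Scg3, a granin, was at 2.25, 1.93, 1.34 and 2.25 against 0.806 and 1.19. Besides Scg3 and G6pc2 these were Scg2, a further granin, Scg5, a chaperone of prohormone convertase, Pcsk1, a prohormone convertase, and Cpe, a carboxypeptidase of prohormones. Chga, chromogranin A, was at 2.83, 1.99, 1.12 and 3.19 against 0.799 and 1.20, so that KO_615A lay within the wildtype range. Abcc8 and Kcnj11, the subunits of the ATP-sensitive potassium channel, were at log2 fold changes of 0.04 and 0.02. Of 10 measured transcription factors of the endocrine lineage, 1 lay above and 1 below. Isl1, of all islet cells, was at 1.93, 1.92, 1.53 and 2.63 against 0.989 and 1.01 on 1 probe set, with a log2 fold change of 0.36 on the other. Nkx2-2 was at 0.895, 0.601, 0.799 and 0.706 against 1.05 and 0.954. Neurog3, which marks endocrine progenitors, was at log2 fold changes of -0.05 and -0.03 on its 2 probe sets. limma called 0 of the 32 measured genes of these 3 lists, 11 of which had an unadjusted p under 0.05, a limit that 2.56% of all genes passed with higher and 5.51% with lower values in the KO, on 1 probe set per gene.

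Most genes of the cell cycle on the list were at lower values in the KO. Of 21 measured genes of mitosis and DNA replication 19 had a negative log2 fold change, 12 lay below both wildtype in all 4 KO and 0 above, against 9.42% of all genes below. The median log2 fold change was -0.48, and the median log2 ratio was -0.38, -0.78, -0.12 and -0.61 in KO_540C, KO_540G, KO_615A and KO_615B. Mcm5, a subunit of the replicative helicase, was at 0.582, 0.313, 0.856 and 0.332 against 0.982 and 1.02 (log2 fold change -1.07, SE 0.43) on 1 of its 3 probe sets. On the others the KO overlapped the wildtype, and the log2 fold change nearest 0 was -0.06. Mcm7, of the same helicase, lay below both wildtype on each of its 4 probe sets, with log2 fold changes of -0.93, -0.59, -0.43 and -0.39. Ccnb2, cyclin B2, was at 0.661, 0.362, 0.753 and 0.517 against 1.04 and 0.959 (log2 fold change -0.85, SE 0.23). On the chosen probe set of each of these genes KO_540G was the lowest and KO_615A the highest of the 4 KO. No KO reached the wildtype range there.

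The other members below were Bub1, of the spindle checkpoint, at 0.338 to 0.863, the mitotic kinase Aurkb at 0.440 to 0.891, the cyclin-dependent kinase Cdk1 at 0.508 to 0.839, the spindle motor Kif11 at 0.555 to 0.884, Mcm2 at 0.462 to 0.898, Mcm4 at 0.643 to 0.920, Mcm6 at 0.561 to 0.937, the replication clamp Pcna at 0.584 to 0.870 and the survivin gene Birc5 at 0.601 to 0.840. Mki67, the Ki-67 antigen of dividing cells, was at 0.818, 0.634, 1.04 and 0.741, and KO_615A lay within the wildtype range. Without KO_540G, the array with the widest spread, the list's median log2 fold change was -0.38, and without KO_615A it was -0.58. limma called 0 of the 21 genes, 10 of which had an unadjusted p under 0.05, against 5.51% of all genes that were lower at that limit.

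**Figure D4:**
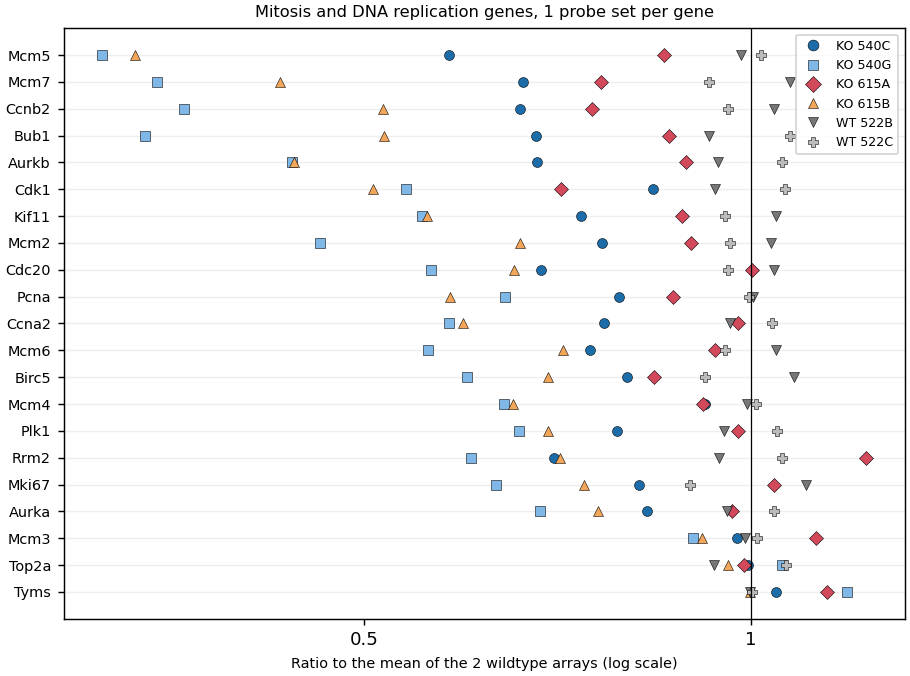
Ratio to the wildtype mean on a log axis for the 21 measured genes of mitosis and DNA replication, 1 symbol per array, ordered by log2 fold change. KO_540G and KO_615B hold most of the lowest values and KO_615A mostly lies nearest to wildtype, with Mcm5 at 0.313 in KO_540G and 0.856 in KO_615A.

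Genes for the synthesis of serine and other amino acids lay mostly below the wildtype in 3 KO. Of 13 measured genes 11 had a negative log2 fold change, 4 lay below both wildtype and 0 above. Besides Phgdh these were Psat1, the second enzyme of serine synthesis, at 0.578, 0.253, 0.840 and 0.384 against 0.902 and 1.10 (log2 fold change -1.10, SE 0.38), Cth, which makes cysteine, at 0.587, 0.314, 0.773 and 0.368 (log2 fold change -1.06, SE 0.42), and Aldh18a1, of proline synthesis, at 0.752 to 0.982. Asns, the asparagine synthetase, was at 0.468, 0.428, 1.61 and 0.529, and Shmt1 was at 0.443, 0.448, 1.04 and 0.463 on the chosen one of its 4 probe sets. The list's median log2 ratio was -0.35, -0.41, 0.05 and -0.38 in KO_540C, KO_540G, KO_615A and KO_615B. The folding genes of the endoplasmic reticulum did not follow: of 14 measured 7 were higher and 7 lower, with a median log2 fold change of 0.01 and 1 member above both wildtype, the stress-response gene Sdf2l1 at 1.13 to 1.34.

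The direct targets of Wnt/β-catenin signaling gave no common direction. Of 16 measured 2 lay above both wildtype and 2 below, and the median log2 fold change was -0.06, with 0.06 from KO_540C and KO_540G alone and -0.15 from KO_615A and KO_615B alone. Axin2, a feedback inhibitor of the pathway, was at 1.08, 1.17, 0.966 and 0.863 on 1 probe set and at 0.947, 0.889, 1.06 and 0.772 on the other. Lef1, a transcription factor of the pathway, had log2 fold changes of 0.03 and -0.03. Mycn was at 0.511, 0.394, 0.714 and 0.418 against 0.832 and 1.17, and Tnfrsf19, a receptor of the tumor necrosis factor family, at 0.938, 0.523, 0.694 and 0.601 against 1.03 and 0.966 on 1 of its 3 probe sets. The 2 above were Cd44, a hyaluronan receptor, at 1.38 to 1.70 on the chosen probe set, and Sp5, a zinc finger factor, at 1.02 to 1.22. Rnf43, a ligase that removes Wnt receptors, was low in 3 KO and not in KO_615A, at 0.425, 0.455, 1.06 and 0.515, and its relative Znrf3 was at 0.608, 0.388, 1.13 and 0.688. Ccnd1, cyclin D1, was at 1.21, 0.969, 1.29 and 1.23 on the chosen probe set. On another of its 3 probe sets all 4 KO lay below both wildtype, at 0.801, 0.726, 0.794 and 0.697 against 1.01 and 0.985 (log2 fold change -0.41, SE 0.12), and on the other the log2 fold change was -0.01. Myc was at 0.676, 0.465, 1.18 and 0.586.

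The junction partners and the other signaling pathways held few differences. Of 7 measured cadherins and catenins 1 lay below, Ctnnb1 itself on its first probe set, and Jup, the plakoglobin that can take the place of β-catenin at junctions, was at 1.02, 1.17, 1.09 and 1.16 against 1.05 and 0.952. Ctnna1, α-catenin, was at 0.784, 2.07, 1.15 and 1.74, overlapping the wildtype. Of 14 genes of Fgf signaling 2 lay above, the ligand Fgf1 at 1.10 to 1.53 and the receptor Fgfr3 at 1.12 to 1.93, and 1 below, the receptor Fgfr4 at 0.835 to 0.892. Fgfr2, the receptor that relays the mesenchymal signal Fgf10 to the epithelium, was at 0.588, 0.541, 0.716 and 0.590 against 1.08 and 0.921 on 1 of 3 probe sets, where KO_615A was low with the others. Of 9 hedgehog genes Gli3, a transcription factor of the pathway, lay above at 1.06 to 1.36 and Ptch1, the receptor, below at 0.469 to 0.872. Hhip, an inhibitor of hedgehog ligands, was at 0.452, 0.364, 0.8004 and 0.451 on 1 of 4 probe sets and at log2 fold changes of -0.06 to -0.27 on the other 3. Of 12 activin genes Fst, the activin-binding follistatin, at 1.09 to 1.41, and Smad3, a signal transducer, at 1.05 to 1.26 lay above, and the receptor Acvr2a below, at 0.558 to 0.856. These lists are short, and 8.79% of all genes lay above and 9.42% below, so these members are no result about a pathway.

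Several groups of genes of cells outside the epithelium were at higher values. All 12 measured mesenchyme markers had a positive log2 fold change, 5 lay above both wildtype and 0 below, with a median of 0.31. The shares of all genes were 8.79% above and 9.42% below. Lum, a proteoglycan of collagen fibrils, was at 1.91, 2.56, 2.40 and 2.05 against 1.28 and 0.719 (log2 fold change 1.21, SE 0.27, limma adjusted p = 0.405), and Postn, a matrix protein, at 1.74, 1.87, 1.22 and 1.65 against 0.982 and 1.02. Col1a1, the fibrillar collagen, was at 1.81, 1.36, 1.18 and 2.12, and the mesenchymal homeobox gene Barx1 and the receptor Pdgfrb were at 1.09 to 1.496 and at 1.15 to 1.30. All 12 macrophage and leukocyte markers were likewise positive, 6 lay above and 0 below, with a median of 0.26. Csf1r, the receptor of macrophage growth factor, was at 1.48, 1.52, 1.32 and 1.95 against 1.14 and 0.861 and lay above both wildtype on each of its 3 probe sets. Aif1, C1qb, C1qc, Tyrobp and Fcer1g, all of macrophages, also lay above. These values were smaller than those of the hormones, and limma called 0 of the 24 genes, with 5 at an unadjusted p under 0.05, against 2.56% of all genes that were higher at that limit.

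The mast cell markers divided. Of 11 measured 4 lay above, Cpa3, the chymase Cma1 at 1.76, 2.83, 1.70 and 1.83 against 0.989 and 1.01, the granule proteoglycan Srgn at 2.08, 2.23, 1.85 and 2.08 against 1.19 and 0.813, and the transcription factor Gata2 at 1.254 to 1.48. Kit, Tpsb2, Tpsab1, Mcpt4, Fcer1a and Ms4a2 were at log2 fold changes of -0.09 to 0.15, and the list's median was 0.11. Of 15 skeletal muscle markers 4 lay above: Myh8, Myh3 at 1.02 to 1.48, Acta1 at 1.06 to 1.249 and Myl1 at 1.12 to 1.30. The other myosins Myh1, Myh2 and Myh4 were at 0.08, 0.14 and 0.07 in log2 fold change, and the regulators Myod1 and Myog at 0.02 and 0.00, so that no other member of the list came near Myh8. The part of other tissue in these results was not tested.

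The medians of nerve and vessel genes lay above the wildtype in the KO other than KO_615A. Of 12 measured neuron and glia markers 4 lay above and 1 below, against 8.79% and 9.42% of all genes. The list's median log2 ratio was 0.54, 0.26, -0.01 and 0.27 in KO_540C, KO_540G, KO_615A and KO_615B. Nefl, the neurofilament light chain, was at 2.91, 2.90, 1.48 and 3.05 against 1.03 and 0.974, and Stmn2, a neuronal microtubule regulator, at 2.34, 1.83, 1.46 and 1.995. Phox2a, of autonomic neurons, was at 1.10 to 1.74, Prph, peripherin, at 1.19 to 1.42, and the receptor Ret below the wildtype at 0.891 to 0.948. Of 10 endothelial markers 3 lay above: Vwf, von Willebrand factor, at 2.34, 1.42, 1.58 and 4.63 against 1.31 and 0.687, Kdr, a receptor of vascular growth factor, at 1.15 to 1.30 and Tek, the angiopoietin receptor, at 1.22 to 1.32. Their median was -0.03 in KO_615A and 0.18 to 0.34 in the other KO. Of the cartilage markers 3 of 10 lay below, Col9a1, the proteoglycan Acan at 0.601, 0.566, 0.863 and 0.572, and Mia at 0.642, 0.349, 0.596 and 0.468, while Col2a1, the main collagen of cartilage, was at a log2 fold change of 0.01.

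Blood cells of the embryo differed in their globins. The 3 embryonic globin genes, listed after the values had been seen, had log2 fold changes of -0.81 (Hbb-bh1), -0.81 (Hbb-y) and -0.46 (Hba-x), and the first 2 lay below both wildtype in all 4 KO. Hbb-bh1 was at 0.454, 0.688, 0.449 and 0.703 against 0.810 and 1.19 on 1 probe set, and on 2 of its 3 probe sets all 4 KO were below. Alas2, the heme synthesis enzyme of red cells, was at 1.35, 1.60, 1.12 and 1.86 against 0.901 and 1.10. Hba-a1, an adult globin, was at 0.959 to 1.19. Hbb-b2, another adult globin, named after its values were seen, was at 2.54, 2.04, 1.56 and 5.05 against 1.02 and 0.979 on 1 of its 2 probe sets and at a log2 fold change of 0.11 on the other, where the KO overlapped the wildtype. Embryonic globins decline with gestation as primitive red cells are replaced, and the stage of each embryo within the day is not given, so stage and genotype cannot be told apart here. Markers of liver (11 measured, 0 above and 0 below), of gut epithelium (9, with Sox2 above at 1.20 to 2.30) and of spleen and mesothelium (7, with Tcf21 above at 1.23 to 2.66) had medians of 0.08, 0.04 and 0.16. The liver and gut counts and medians include Trh and Pdgfb, which were not chosen as markers. They were matched by an older name to the listed Trf and Sis, which gave no value of their own.

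**Figure D5:**
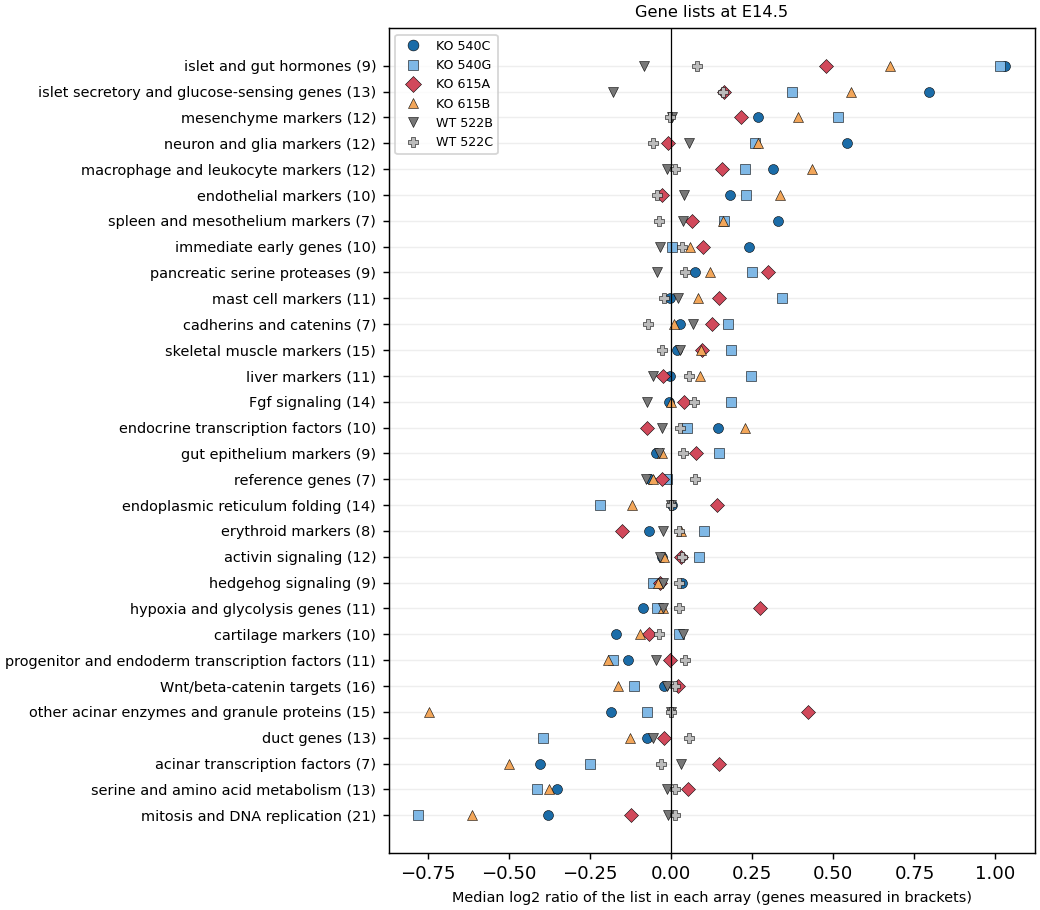
Median log2 ratio of 30 gene lists in each of the 6 arrays, 1 symbol per array, with the number of genes measured in brackets and the lists ordered by median log2 fold change. Islet and gut hormones lie at 0.48 to 1.03 in the 4 KO and mitosis and DNA replication at -0.78 to -0.12, while the other acinar enzymes run from -0.75 to 0.42.

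Of 10 measured immediate early genes on the list, which respond to handling among other stimuli, 1 lay above both wildtype in all 4 KO on the chosen probe sets, Ier3 at 1.07 to 1.39, and Jun was at 1.01, 0.377, 0.633 and 0.568. Of 11 genes of hypoxia and glycolysis 3 lay above, Adm, Bnip3 and Egln3, with log2 fold changes of 0.47, 0.36 and 0.28, and Vegfa lay below at 0.821 to 0.941. Car9, a carbonic anhydrase, was at 0.197, 0.239, 1.65 and 0.198 against 0.812 and 1.19, again with KO_615A apart from the rest. Of 7 reference genes 1 lay above both wildtype, B2m at 1.05 to 1.71. The 2 below were Gusb, at 0.860, 0.389, 0.967 and 0.633, and Hprt, at 0.684, 0.532, 0.857 and 0.658. The study normalised its PCR to Gusb, but used Gapdh in its place for Ptf1. Over all 31 lists 342 genes were measured, limma called 0 of them on the chosen probe sets, and 55 had an unadjusted p under 0.05, 28 higher and 27 lower, against 2.56% and 5.51% of all genes.

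The further genes that the study names differed between their probe sets. Hpgd, a prostaglandin dehydrogenase, was at 0.802, 0.618, 0.791 and 0.606, Rgn, regucalcin, at 0.539, 0.443, 0.671 and 0.398, and Slc19a2, a thiamine transporter, at 0.559, 0.394, 0.924 and 0.455, and all 3 lay below both wildtype in all 4 KO on the chosen probe set. Onecut1, a factor of endocrine progenitors and ducts, was at 0.775, 0.867, 1.01 and 0.746 on the chosen probe set, overlapping the wildtype. On its other probe set all 4 KO lay below, at 0.503, 0.333, 0.666 and 0.455 against 0.786 and 1.21 (log2 fold change -1.04, SE 0.27, limma adjusted p = 0.516). Prss2, a trypsinogen, was at 1.111, 1.09, 1.05 and 0.898 on 1 probe set and, on its other 3, at 1.23 to 1.83 in 3 KO and at 0.603 to 0.825 in KO_615B. Egf, on its 1 probe set, and Myh4, on its 2, had log2 fold changes of 0.05 to 0.07. Myh8, described above, had a KO mean ratio of 8.80. The fold change that the study gives for Myh4 is the same after rounding. Whether the study's entry for Myh4 came from the probe set of Myh8 was not tested. Fmo2, Msi2 and Tmpo had log2 fold changes of -0.07 to 0.05 on the chosen probe set, but all 4 KO lay below both wildtype on 3 of the 5 probe sets of Fmo2, on 3 of the 8 of Msi2 and on 3 of the 6 of Tmpo. The lowest log2 fold changes of these 3 genes were -1.09, -1.02 and -1.05, and on 1 probe set of Tmpo all 4 KO lay above, at 0.32. Of 38 such genes 34 were matched to a probe set by name, and the other 4 (BC003331, Ins1, Amy2a5 and Try4) were not. Odr4, described above, had a KO mean ratio of 5.83 on its high probe set. That value rounds to the fold change that the study gives for BC003331.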

How the data were processed

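Amplified RNA of 12 single pancreata was hybridised to Affymetrix MOE430 2.0 arrays. According to the methods, the authors summarised the arrays with RMA in GeneSpring and deposited for each probe set the linear ratio over the average of the wildtype pair of that day. No depth applies, and the number of arrays limits the precision. Of 45101 probe sets 64 controls were set aside. Of the 45037 tested, 34945 carry 1 symbol (18193 genes) in the platform annotation, 932 several and 9160 none, and 34741 matched a GRCm38.p6 gene table. A model of 4 groups (8 residual degrees of freedom) on log2 values was fitted with limma 3.58.1 under R 4.3.3, adjusted by Benjamini-Hochberg with a limit of 0.05, and tested on simulated data. Lists used 1 probe set per gene, chosen by its name alone. Genes were named if they passed, were among the 10 smallest p or the 12 largest non-overlapping changes in a direction, were named by the study, or were list members. Members and lists were chosen with earlier results of these data known. The array names give the day as 14.5, and the deposited design text differs slightly. That the arrays of a group are separate embryos follows from the methods, not from the labels. Alternatives are listed at the end.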

Additional observations from a re-analysis of the deposited data

Results flagged for a closer look

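In 3 of 65 probe sets of named genes examined, 1 KO array stood apart from the other 3 by Dixon's gap ratio on log2 values, where chance gives 3.25. Elf5 had a gap ratio of 0.874, with KO_615A at 0.509 and the other KO at 0.192 to 0.217. 2010315B03Rik had a gap ratio of 0.836, with KO_615B at 0.433 and the others at 0.476 to 0.485. Itga9 had a gap ratio of 0.834, with KO_540G at 1.39 and the others at 1.81 to 1.91. Over all probe sets 6.41% passed the same limit. Ptf1a, where KO_615A was at 1.48 and the others at 0.149 to 0.269, had a gap ratio of 0.743 and did not pass it.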

How the results depend on the processing

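No paired analysis was possible because the wildtype and KO arrays of E14.5 share no replicate number. The number of probe sets higher and lower at a limma adjusted p under 0.05 (1 and 4) was 0 and 0 with a trended and robust variance, 10 and 4 on the E14.5 arrays alone, 3 and 6 after quantile normalization, 0 and 3 after median centring, 9 and 21 with array weights, 3 and 8 with the number in the array name as a random block, 0 and 2 with KO_540C and KO_540G as the sole KO, 2 and 4 with KO_615A and KO_615B, and 0 and 4 once probe sets that can match several transcripts (_x_at, _s_at) were left out. By the methods' t-test the counts were 0 and 0 after correction and 1206 and 1063 at an unadjusted p, where limma gave 1054 and 2036. Leaving out 1 array of either day gave 0 to 5 higher and 1 to 14 lower, with both highest counts reached without KO_615A and the lowest count of lower probe sets without WT_522B. Probe sets with all KO above or below both wildtype (3680 and 3630) numbered 2034 and 2190 after quantile normalization, 7361 and 7023 with KO_540C and KO_540G as the sole KO, 8569 and 8819 with KO_615A and KO_615B, and 4521 to 9252 and 4077 to 7499 without 1 array, where fewer arrays have to agree. Of 39 named probe sets under 20 settings, 0 changed direction. They were chosen by limma's limit, a small p or a large change, and on each all 4 KO lay beyond both wildtype. Leaving out arrays could therefore not reverse them, so this count tests little. Of 33 list medians, 22 kept their sign in all 12 settings tried on them, among them those of hormones, mitosis, mesenchyme, macrophages and acinar factors, and those of Wnt targets, Fgf, hedgehog and activin genes did not. The lists written after the values had been seen, and the counts of 1 array near wildtype, were chosen after seeing the data. The cause of these differences was not tested. With 2 wildtype arrays a median standard error of 0.14 in log2 was reached, and 262 probe sets had one over 0.5.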
